A study of Mus musculus with 16 samples.

Results

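The nuclear genes of the mitochondrial respiratory chain and ATP synthase were followed in fibroblasts from mouse embryos (MEFs) with and without Arkadia, before and during stimulation with TGFβ. The genes were chosen by symbol (Nduf genes, Sdha to Sdhd, Uqcr genes, Cox followed by a digit, and Atp5 genes), and 94 of the 12100 genes of the deposited table matched. Of these, 76 encode subunits: 35 of complex I (7 core, 28 accessory), 4 of complex II, 8 of complex III, 14 of complex IV, and 15 of complex V (5 of the F1 head, 10 of the membrane part and stalk). The other 18 encode assembly and related factors. No symbol of a mitochondrially encoded gene stood among the rows used, and Cox4i2, Cox6b2, Cox8b, Cox8c and Ndufa4l2 were not among the 94.

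The respiratory chain passes electrons from NADH (complex I) and succinate (complex II) through complex III to oxygen at complex IV, and complex V uses the resulting proton gradient to make ATP. Most subunits are nuclear-encoded, imported and assembled with mitochondrially encoded ones by dedicated factors, and several complex IV subunits exist as ubiquitous and muscle isoforms. Arkadia, the product of Rnf111, is a RING-domain ubiquitin ligase known for degrading inhibitors of TGFβ signalling.

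Poly(A)-selected RNA of 16 libraries was sequenced. WT (Ark+/+) and null (Ark-/-) MEFs, gifts from another laboratory, were sampled without TGFβ (0 h) and after 1, 4 and 16 h of TGFβ at 2.5 ng/ml in a set of libraries named A. A set named B held null MEFs at 0 and 1 h, and at 0, 1 and 4 h null MEFs in which a Moloney-type retrovirus expressed, from the CAG promoter and together with EGFP, either wild-type Arkadia (rvWT) or the sim mutant of Arkadia (sim). Infected cells were used at early passage, and no empty-vector line was analysed here. Each line and time had 1 library per set, so the spread in a test between lines is how far their difference varied over the times, and in a test between times how far the change varied over the lines and sets. No label says that libraries came from separate cultures, so p-values measure only how these samples scatter, which may be technical.

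Rnf111 fitted the labels: 14.5 to 15.1 FPKM in WT, 0.121 to 0.198 in null of set A, 0.435 and 0.527 in null of set B, 102 to 126 in rvWT and 56.0 to 62.1 in sim. FPKM scale fragments to transcript length and library size. They summed to 397019 to 481970 per library, and read depth is unknown. Of 10 fibroblast markers 7 were in the table (Pdgfra, Fap and Dcn were not), and their summed level was 1721 to 2250 FPKM in WT, 2887 to 4019 in null of set A, 2980 and 3012 in null of set B, and 4690 to 5420 over rvWT and sim. WT thus lay below every other line. The collagen Col3a1 was at 7.33 to 11.6 FPKM in WT and at 279 to 665 FPKM in the other 12 libraries, and the matrix proteoglycan Lum at 0.0612 FPKM or less in WT and 4.05 to 43.1 FPKM in the others. The epithelial keratin Krt19 was at 267 to 519 FPKM in WT and at 0.672 to 4.91 FPKM in the other 12 libraries. Krt8 and Krt18 went the other way within set A. Krt8 was at 0.59 to 1.17 FPKM in WT and at 2.64 to 12.7 FPKM in null. Krt18 was at 0.43 to 1.08 FPKM in WT and at 1.21 to 1.91 FPKM in null. The defining epithelial genes Epcam and Cdh1 were not in the table. Of the adipocyte markers only Lpl was in the table, of the endothelial ones only Kdr (6.98 FPKM or less), and of the haematopoietic ones Cd68 and Cd14 (summed level 15.4 FPKM or less). In bulk RNA, fewer cells of a type and less RNA per cell cannot be told apart.

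The 94 genes held 2.425% to 3.42% of all FPKM of a library. FPKM are scaled to transcript length, but whether this makes levels comparable between genes was not tested. The difference between the null libraries of sets A and B varied with transcript length, so the ranking of genes is a description only. Levels were highest in the F1 head. Its median levels over the 16 libraries ran from 181 FPKM (Atp5c1, the γ subunit) to 801 FPKM (Atp5b, the catalytic β subunit). Complex IV subunits spanned 0.695 (Cox6a2) to 521 FPKM (Cox8a), complex III 78.1 to 317 FPKM, the membrane part and stalk of complex V 112 to 403 FPKM, and the core of complex I 22.3 to 100.4 FPKM. Complex II was narrow at 69.2 to 89.1 FPKM. Assembly factors were lower, at 3.25 to 99.9 FPKM.

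**Figure D1:**
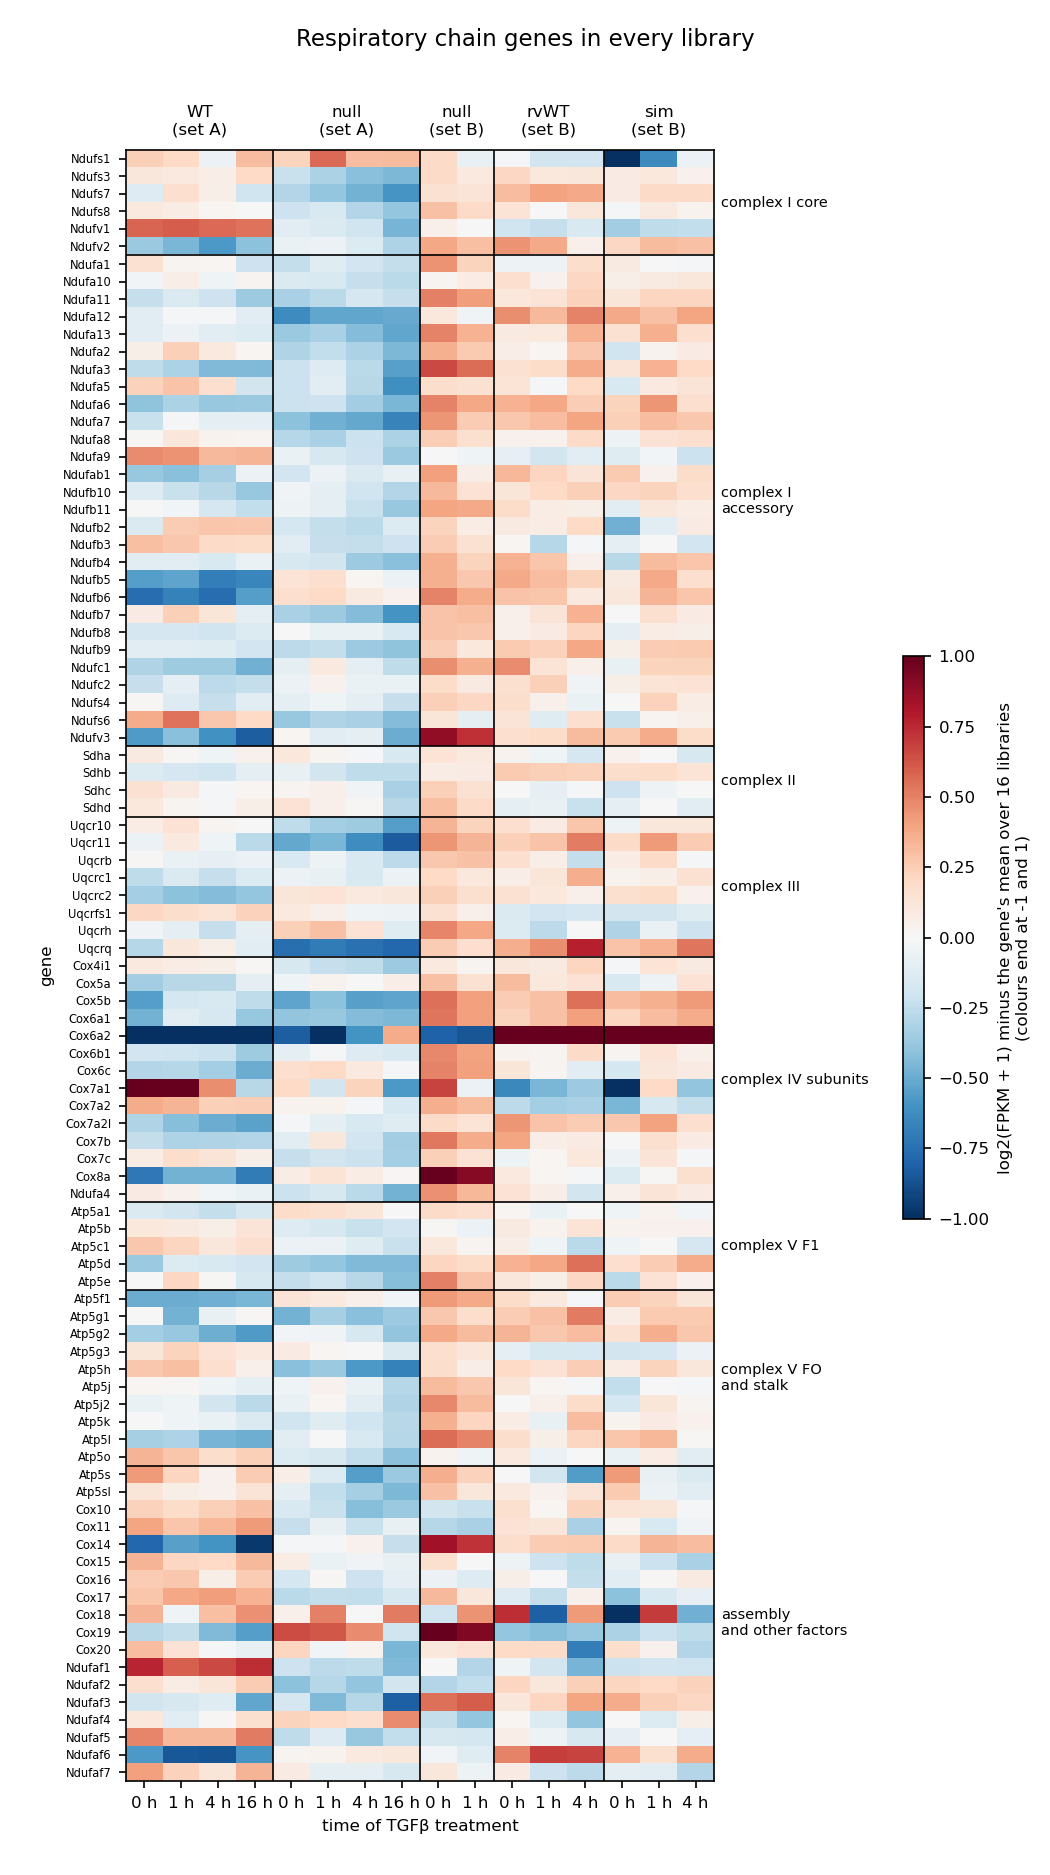
All but 1 of the 94 genes (rows, by complex) in the 16 libraries (columns, by line, set and time of TGFβ), coloured by log2(FPKM + 1) minus the gene's mean over all libraries. The 2 null libraries of set B are red in most rows where the 4 null libraries of set A are blue, and within WT single genes of the same complex go in opposite directions.

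Promoter letters were searched in the 250 bases before the RefSeq start (GRCm38.p6, both strands) of the 79 members that matched a promoter entry, beside 9435 genes of the table. The NRF1 motif GCGCATGC, bound by a regulator of respiratory genes, was in 11.4% of members and 5.02% of all genes. The ETS letters CCGGAAG, the core of sites for GABP, were in 20.3% and 16.1%, and the YY1 letters AAGATGGC in 3.80% and 2.47%. GC boxes (GGGCGG) were in 41.8% of members and 65.0% of all genes, and CCAAT in 43.0% and 41.0%. A match is a description of these letters only, and windows of members are printed with their results.

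The null line itself differed between the sets, and this bears on every comparison in set B. In a comparison added after seeing the data, a model of series and time over the 16 libraries, 66 of 94 members were higher and 1 (Ndufaf4) was lower in null of set B than in null of set A (limma, Benjamini-Hochberg adjusted p below 0.05, a rule that 35.7% of all genes tested met). The median difference of the members was 0.37 on the log2(FPKM + 1) scale, the scale of every difference given here, against 0.04 over all genes. With the small RNA genes removed and each library rescaled, the median over all genes moved to -0.09 and that of the members to 0.23, with 47 members higher. The shift covered 25 of 28 accessory and 6 of 7 core subunits of complex I, 12 of 14 complex IV subunits and 8 of 10 genes of the complex V membrane part and stalk, but 1 of 4 of complex II and 6 of 18 assembly factors. Cox8a, a small complex IV subunit, was at 543, 567, 542 and 519 FPKM in null of set A (0, 1, 4 and 16 h) and at 1050 and 972 FPKM in null of set B (0 and 1 h). The libraries of the same line did not overlap. Cox5b, another complex IV subunit, was at 103 to 113 FPKM in null of set A and at 221 and 201 FPKM in null of set B, a difference of 1.03 (SE 0.10), the widest upward difference among the members. Without null 0 h of set B, 34 members were called higher.

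Transcript length moved with this shift. The median length was 863 bases in the 94 members and 2848 bases over the genes of the table. Members under 1000 bases had a median difference of 0.48 between the null sets (46 of 54 called higher), and longer members 0.19 (20 of 40). Among 594 other coding genes under 1000 bases the median was 0.37, with 323 called higher and 20 lower. The part of length in the difference was not tested. The sets are read from the library names. The design text names 2 batches of sequencing, and whether these are the sets is not stated. Set and line cannot be told apart for WT, rvWT and sim, which were each in 1 set.

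**Figure D2:**
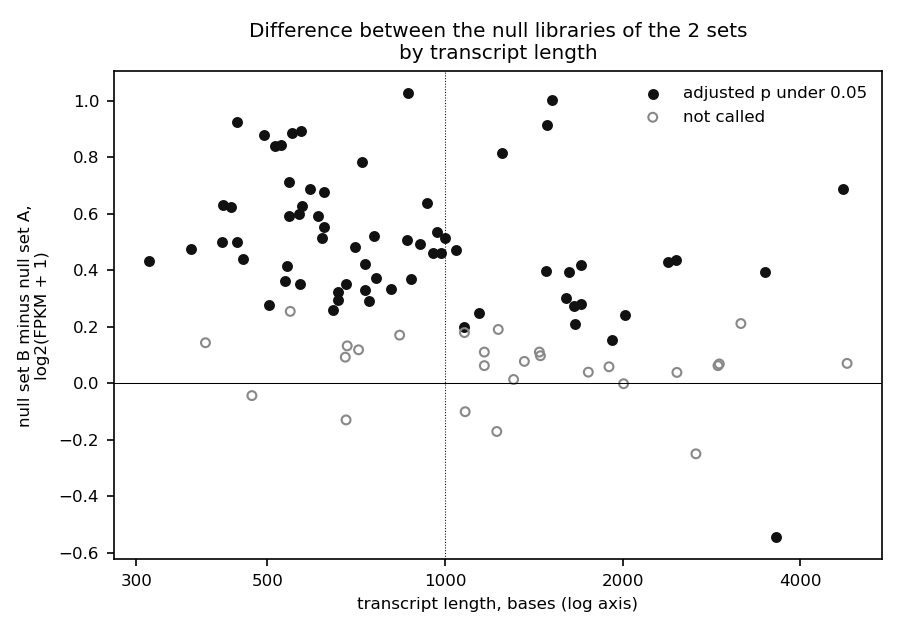
Each point is a respiratory chain gene; the horizontal axis is its transcript length in bases (log axis) and the vertical axis the null set B minus null set A difference in log2(FPKM + 1), filled where adjusted p was below 0.05. Of 54 genes left of the 1000-base line 46 were called higher, against 20 of 40 to the right.

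WT and null MEFs of set A, compared over 4 libraries each with time as a term, address what the line without Arkadia expresses differently. Respiratory chain genes differed in both directions within most complexes: 48 of 93 tested members were higher in WT and 21 lower, so 74.2% were called, where 67.5% of all 10976 genes tested were. The member median was 0.18, against 0.07 over all genes. Differences were modest: 21 of 93 members reached 0.5 on the log2 scale in either direction and none reached 1. Of all 10976 genes tested, 4276 reached 0.5 and 1407 reached 1. Under the median-ratio scaling the split was 43 higher and 26 lower. With the null libraries of both sets as control, an alternative chosen after seeing the data, it was 28 higher and 34 lower. The count of higher members includes Cox7a1, which reached the filter of 1 FPKM only through WT. The keratin Krt19 was higher in WT than in null of set A. Krt8, Krt18, the fibroblast genes Col3a1 and Lum and the summed fibroblast level were lower. The part of these markers in the result was not tested.

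In complex I, 5 core subunits were higher in WT and 1 was lower. Ndufv1, which binds NADH and FMN, was at 94.9, 96.9, 94.0 and 92.8 FPKM in WT (0, 1, 4 and 16 h) and at 58.3, 57.2, 54.9 and 45.5 FPKM in null of set A. The groups did not overlap, and the null libraries of set B (65.5 and 63.0 FPKM) also lay below WT (difference 0.81, SE 0.06, limma adjusted p = 0.000293). Its neighbour in the NADH-oxidizing module, the iron-sulfur subunit Ndufv2, went the other way, with 35.4, 33.3, 30.5 and 34.4 FPKM in WT and 44.0, 44.2, 41.8 and 37.0 FPKM in null of set A (difference -0.31, SE 0.07, adjusted p = 0.0103). No WT library reached the lowest null library. Ndufs1, the large iron-sulfur subunit, was not called (20.0 to 26.2 FPKM in WT, 24.7 to 31.5 in null of set A). Of the accessory subunits 14 were higher and 5 lower. Ndufb6, in the membrane arm, was at 89.2, 94.4, 89.0 and 103 FPKM in WT and at 171, 174, 161 and 156 FPKM in null of set A, the widest downward difference of any member (difference -0.81, SE 0.07, adjusted p = 0.000304). Ndufs6, a zinc-binding subunit, was at 79.2, 89.1, 73.7 and 70.0 FPKM in WT and at 46.7, 49.4, 48.5 and 44.8 FPKM in null. Both subunits separated the lines completely, in opposite directions.

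The windows of 120 bases before the start of 4 members that differed between WT and null are shown, because the members of a complex differed in opposite directions. The ETS letters were found in those of Atp5h and Ndufaf1, both higher in WT than in null of set A, and in neither of the 2 from the NADH-oxidizing module. Windows not shown held them too in members lower in WT (Cox6b1 and Uqcrh) and not called (Sdhd). Whether the letters go with a direction was not tested. Capitals mark ETS letters, 5′ to 3′ on the gene's strand.
Ndufv1: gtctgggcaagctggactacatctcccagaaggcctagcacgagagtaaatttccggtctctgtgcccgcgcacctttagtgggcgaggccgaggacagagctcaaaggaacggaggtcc
Ndufv2: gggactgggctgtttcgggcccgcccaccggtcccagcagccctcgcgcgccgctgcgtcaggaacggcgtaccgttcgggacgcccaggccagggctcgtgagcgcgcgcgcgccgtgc
Atp5h: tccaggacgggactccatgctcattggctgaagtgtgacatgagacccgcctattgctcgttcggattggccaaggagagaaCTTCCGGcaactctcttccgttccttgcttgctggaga
Ndufaf1: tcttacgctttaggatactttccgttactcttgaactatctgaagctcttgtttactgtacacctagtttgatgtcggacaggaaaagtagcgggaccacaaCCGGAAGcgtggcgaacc
The windows are chr19:4012756-4012875 (Ndufv1), chr17:66101560-66101679 (Ndufv2), chr11:115419920-115420039 (Atp5h) and chr2:119662835-119662954 (Ndufaf1), all from the minus strand.

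No complex II gene was called between WT and null (0 of 4 by limma, and 0 at an unadjusted p below 0.05). Sdha, the flavoprotein, was at 72.7, 68.7, 66.2 and 70.4 FPKM in WT and at 73.5, 69.6, 67.9 and 61.3 FPKM in null of set A, and the groups overlapped. Sdhb, the iron-sulfur subunit, was at 60.1 to 64.6 FPKM in WT and 57.8 to 65.7 FPKM in null. In complex III 4 members were higher and 2 lower. Uqcrq, a small subunit, was at 225, 297, 285 and 255 FPKM in WT and at 162, 168, 163 and 159 FPKM in null of set A (difference 0.69, SE 0.07, adjusted p = 0.00058). The 2 null libraries of set B, at 327 and 308 FPKM, lay above all of them. Uqcrc2, a core subunit, was at 56.9, 54.0, 53.2 and 54.9 FPKM in WT and at 78.7, 79.3, 77.4 and 78.3 FPKM in null (difference -0.51, SE 0.04), with null of set B at 85.5 and 80.8 FPKM. Its partner Uqcrc1 was not called (76.8 to 83.5 FPKM in WT, 82.3 to 88.1 in null of set A), and the Rieske protein Uqcrfs1 was higher in WT by 0.17 (SE 0.05).

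Complex IV subunits split evenly, with 6 higher (Cox7a1 among them) and 5 lower of 13 tested. Cox8a was at 314, 371, 371 and 317 FPKM in WT, below every null library (difference from null of set A -0.66, SE 0.05, adjusted p = 0.000249). Cox5a (difference -0.26, SE 0.04), Cox6b1 (-0.14, SE 0.04) and the supercomplex factor Cox7a2l (-0.34, SE 0.04) were also lower in WT. Cox4i1 (0.31, SE 0.04), Cox7a2 (0.32, SE 0.04) and Ndufa4, a subunit once counted to complex I (0.29, SE 0.05), were higher. The Ndufa4 difference was -0.01 with the null libraries of both sets as control.

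In complex V the F1 head had 4 members higher and 1 lower. Atp5b was at 839, 830, 812 and 852 FPKM in WT and at 713, 697, 669 and 682 FPKM in null of set A (difference 0.27, SE 0.03, adjusted p = 0.000948). All 4 WT values exceeded all null values, those of set B included (785 and 750 FPKM). Atp5c1 was likewise above (difference 0.31, SE 0.04), while the α subunit Atp5a1 was lower in WT (difference -0.29, SE 0.05), with 244 to 260 FPKM against 288 to 327 FPKM in null of set A. In the stalk Atp5h (subunit d) was at 265, 272, 247 and 228 FPKM in WT and at 165, 171, 148 and 138 FPKM in null of set A, a difference of 0.70 (SE 0.03). Null of set B, at 249.4 and 230.5 FPKM, lay within the WT range of Atp5h. Atp5f1 (subunit b of the same stalk) was at 84.4, 84.5, 85.4 and 86.6 FPKM in WT and at 131, 128, 124 and 117 FPKM in null, a difference of -0.55 (SE 0.05). Of the 3 genes for the identical mature subunit c, Atp5g2 was lower in WT (-0.29, SE 0.04), Atp5g3 higher (0.16, SE 0.05) and Atp5g1 not called (78.2 to 110 FPKM in WT, 77.9 to 86.4 in null).

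Assembly factors were called in 15 of 18 cases, 11 higher and 4 lower in WT (83.3%, against 67.5% of all genes). Ndufaf1, an early complex I assembly factor, was at 23.0, 20.5, 21.4 and 22.6 FPKM in WT and at 11.3, 10.8, 10.9 and 9.46 FPKM in null of set A, the widest upward difference among the members (difference 0.98, SE 0.07, adjusted p = 0.000207). Null of set B, at 13.2 and 10.6 FPKM, did not reach WT either. Ndufaf6 went the other way, with 4.45, 3.49, 3.45 and 4.38 FPKM in WT and 7.23, 7.27, 7.64 and 7.73 FPKM in null (difference -0.78, SE 0.08). Against all 6 null libraries of both sets, 14 members lay above in every WT library and 17 below, which is 14.9% and 18.1% of members where 25.8% and 22.3% of all genes did so. Of the 14 above, 8 were assembly factors, among them Cox10 and Cox15 of haem A synthesis and Cox11 of copper delivery. Of the 17 below, 14 were subunits. Subunits made up 76 of the 94 members, so this share was near that of all members. With the null libraries of both sets as control, the WT difference was 0.19 for Uqcrq, 0.42 for Atp5h, 0.17 for Cox4i1 and 0.16 for Cox7a2. It was -0.39 for Cox5a, -0.40 for Cox6b1, -0.50 for Atp5g2 and -1.11 for Cox8a. All of these were still called, and Atp5g3 (0.10) was not. That control averages the null sets, so a call there does not show a difference from each set. WT overlapped null of set B in Atp5h, Cox4i1 and Cox7a2, and lay below null of set B in Uqcrq.

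**Figure D3:**
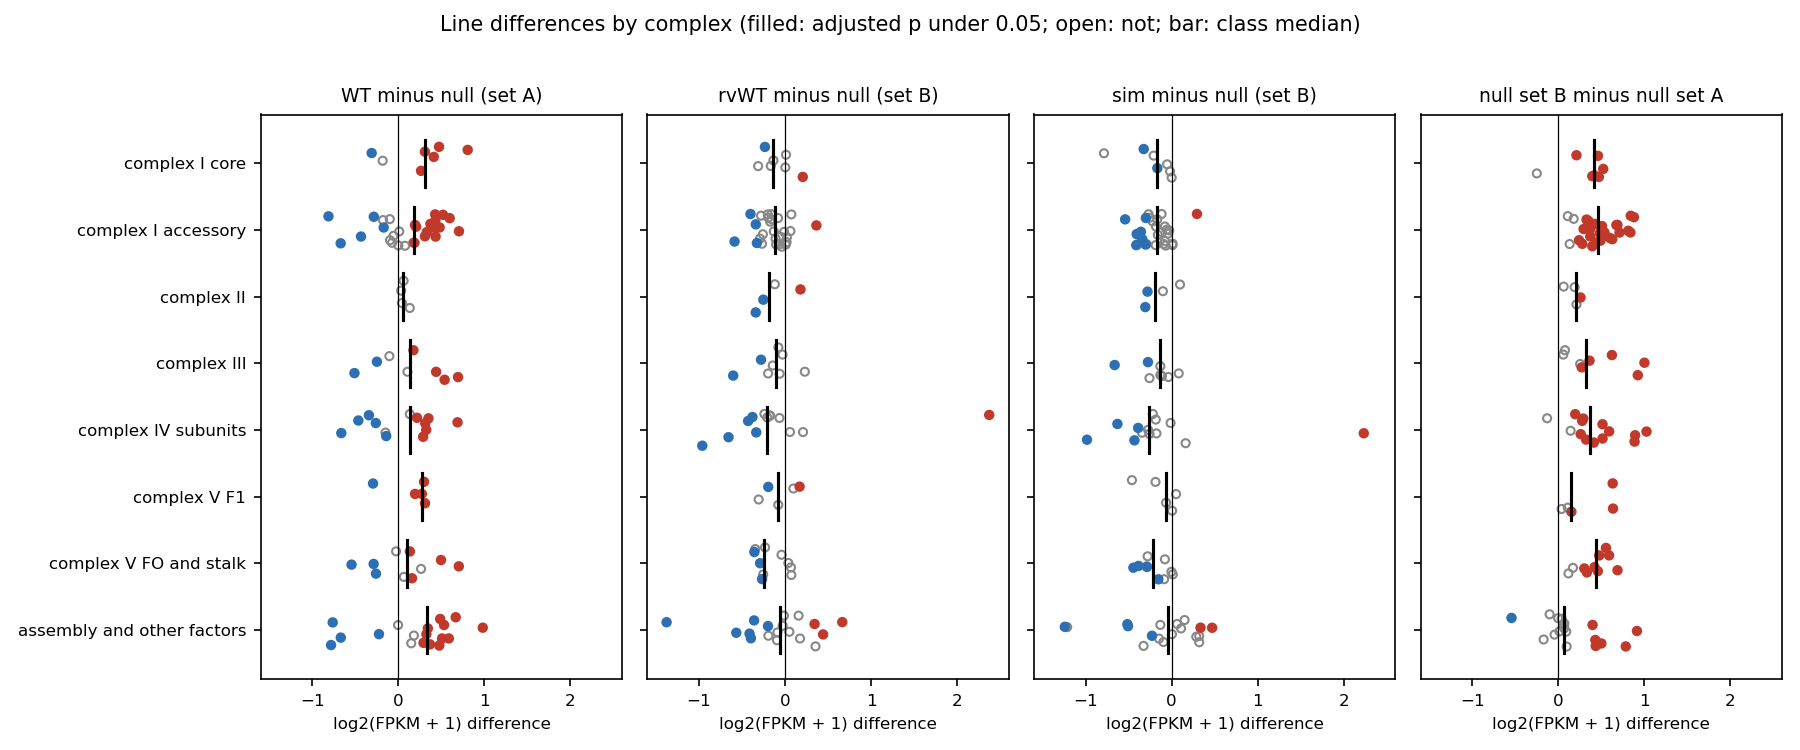
Differences in log2(FPKM + 1) of each member by complex (rows) in 4 comparisons (panels), filled where adjusted p was below 0.05 and open where not, with a bar at the class median. WT minus null spreads to both sides of 0 in most complexes, the 2 retroviral lines lie mostly left of 0 against null of set B, and null of set B lies right of null of set A.

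rvWT and sim were compared with the 2 null libraries of set B to ask what differs where a retrovirus expresses wild-type or mutant Arkadia. Their Rnf111 levels (102.5 to 125.8 FPKM in rvWT, 55.95 to 62.1 FPKM in sim) were above those of WT (14.51 to 15.14 FPKM). Where libraries with Arkadia are named below, those of sim, which carry the mutant, are included. In rvWT 8 of 93 tested members were higher and 24 lower than null (34.4% called, against 38.6% of all genes), with a median of -0.14 against -0.03 over all genes. In sim 4 were higher and 25 lower (31.2% called, against 34.7%), with a median of -0.17 against -0.02. Both comparisons share the null libraries, and both counts of higher members include Cox6a2, which reached the filter only through rvWT and sim. Cell type markers moved with these lines, and their part in the result was not tested: Lpl was at 16.1 to 39.6 FPKM over rvWT and sim and at 149.7 and 142 FPKM in null of set B, the collagen Col1a2 at 493 to 617 FPKM against 162.5 and 162.9, and the summed fibroblast level at 4690 to 5420 FPKM against 2980 and 3012. Of the members lower in rvWT and in sim, 17 of 24 and 19 of 25 were also among those higher in null of set B than in null of set A. These shares are near that of all members, of which 66 of 94 were higher there, and the comparisons share the null libraries of set B. Of the members lower in rvWT and in sim, 3 in each lay below all 6 null libraries. With the null libraries of both sets as control the split turned to 28 higher and 13 lower in rvWT, and to 25 higher and 14 lower in sim. Under median-ratio scaling it was 10 and 14 in rvWT and 6 and 21 in sim. The counts also rested on single libraries: members lower in rvWT numbered 3 without null 0 h of set B, and 8 without null 1 h, rvWT 0 h or rvWT 1 h. Members lower in sim numbered 3 without null 0 h of set B, 11 without null 1 h, 8 without sim 0 h and 15 without rvWT 1 h. Members higher in rvWT numbered 4 without null 0 h of set B or rvWT 0 h, 3 without null 1 h, and 5 without rvWT 1 h or sim 0 h, and members higher in sim 2 without either null library.

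Cox8a is the plainest case of a difference that depends on the null set. It was at 550, 522 and 510 FPKM in rvWT (0, 1 and 4 h) and at 468, 519 and 576 FPKM in sim, far below null of set B (difference -0.96 in rvWT and -0.98 in sim, SE 0.10 in both). These values overlapped those of null of set A. Uqcrh, the hinge protein of complex III, overlapped the null libraries of set A too (-0.60 in rvWT and -0.66 in sim, SE 0.11 in both). The complex I subunit Ndufv3 lay between the null sets, below that of set B (-0.59 and -0.54, SE 0.10 in both) at 71.6 to 82.4 FPKM over rvWT and sim and above that of set A at 44.9 to 64.2 FPKM. Other members with smaller differences in rvWT were Ndufv1 (-0.23, SE 0.05), Sdhd (-0.34, SE 0.06), Cox6b1 (-0.38, SE 0.08), Atp5j2 (-0.36, SE 0.11) and Atp5g3 (-0.29, SE 0.06). With the null libraries of both sets as control, Cox8a was at -0.51 in rvWT and -0.53 in sim and still called, while Ndufv3 (-0.14 and -0.09), Cox6b1 (-0.10 and -0.12) and Atp5j2 (-0.09 and -0.18) were called in neither, and Ndufv1 (-0.11) not in rvWT.

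Against all 6 null libraries, 8 members (Cox6a2 among them) lay above in every rvWT and sim library and 3 below. That is 8.51% and 3.19% of members, where 7.28% and 10.7% of all genes did so. Cox19, a factor of copper handling for complex IV, was at 22.2, 21.6 and 22.3 FPKM in rvWT, at 23.4, 25.1 and 24.5 FPKM in sim, and at 60.6 and 56.6 FPKM in null of set B (difference -1.38 in rvWT, adjusted p = 0.000137, and -1.24 in sim, adjusted p = 0.000233, SE 0.06 in both). WT, at 24.0, 24.7, 21.4 and 19.7 FPKM, lay in the same range. Null of set A was at 46.7, 45.6 and 41.1 FPKM at 0, 1 and 4 h and at 25.5 FPKM at 16 h, just above the highest of the libraries with Arkadia. Cox7a2, the ubiquitous isoform of a small complex IV subunit, was at 107.3 to 113.0 FPKM in rvWT and 98.73 to 121.7 FPKM in sim, and at 122.4 to 139.2 FPKM in null of set A and 175 and 169 FPKM in null of set B. Its level in WT (161 to 176 FPKM) was above null of set A, so the lines with Arkadia lay on opposite sides of that null. Uqcrfs1 was at 72.3 to 75.9 FPKM over rvWT and sim, and at 79.7 to 92.3 FPKM over the 6 null libraries.

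Cox6a2, the heart and muscle isoform of a complex IV subunit, is described without a test, since only its level in rvWT and sim brought it past the filter. It was at 6.29, 7.21 and 8.52 FPKM in rvWT and at 6.57, 6.52 and 6.50 FPKM in sim, and at 0.574 and 0.522 FPKM in null of set B. Null of set A was at 0.551, 0.291, 0.816 and 2.56 FPKM, and WT was at 0.353 FPKM or less. The retroviral lines lay above all other libraries. The ubiquitous isoform Cox6a1 was at 259 to 523 FPKM, so Cox6a2 made up at most 1.75% of the 2 isoforms' FPKM. Of 10 muscle markers 4 were in the table. Their summed level was 23.4 to 36.8 FPKM over rvWT and sim and 28.0 and 32.9 FPKM in null of set B, and Myod1, Myog, Ckm, Tnnt2, Myl1 and Myh3 were not in the table. Cox7a1, the muscle isoform beside Cox7a2, did not follow Cox6a2: it was at 3.20, 3.75, 1.84 and 0.704 FPKM in WT, at 0.387 to 1.41 FPKM in null of set A and at 1.36 FPKM or less in rvWT and sim. Its levels overlapped between WT and null, and no test is given, since only WT brought it past the filter in set A. Its mean was under 1 FPKM in set B, as that of Cox6a2 was in set A.

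Of the assembly factors, Ndufaf2 was at 34.8, 32.4 and 35.4 FPKM in rvWT, at 34.8, 34.6 and 35.2 FPKM in sim and at 33.8, 31.5, 32.6 and 35.8 FPKM in WT. The null libraries were at 22.2, 24.3, 22.5 and 26.2 FPKM in set A and at 24.2 and 25.0 FPKM in set B. All 10 libraries with Arkadia thus lay above all 6 without (difference 0.48, SE 0.05 in WT, 0.44, SE 0.05 in rvWT and 0.47, SE 0.05 in sim). Cox10, which makes haem O on the way to haem A, was at 11.1 to 14.0 FPKM in the libraries with Arkadia and at 8.09 to 10.0 FPKM in null, with 0.53 (SE 0.08) in WT and 0.34 (SE 0.09) in rvWT called and 0.29 (SE 0.09, adjusted p = 0.0553) in sim not. Atp5b was the third member above all null libraries in every library with Arkadia (798 to 857 FPKM against 669 to 785 FPKM), but was not called against null of set B. Cox19 was the 1 member below, where 2.55% of all genes were above and 4.17% below in this sense. Ndufa12, the complex I subunit of the same family as Ndufaf2, was at 110 to 127 FPKM in rvWT and sim and at 57.4 to 62.7 FPKM in null of set A and 96.6 and 87.2 FPKM in null of set B (difference 0.36 in rvWT and 0.29 in sim, SE 0.05 in both, and 0.67 and 0.60 against the null libraries of both sets). Ndufaf6 was at 10.4, 12.1 and 11.9 FPKM in rvWT and 8.04 to 9.46 FPKM in sim, above null of both sets (6.43 to 7.73 FPKM), while WT lay below null (3.45 to 4.45 FPKM). Among genes outside the naming rule, Ndufv2, Ndufs6, Cox10, Cox11, Cox15 and Cox5b were chosen after their values were seen.

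**Figure D4:**
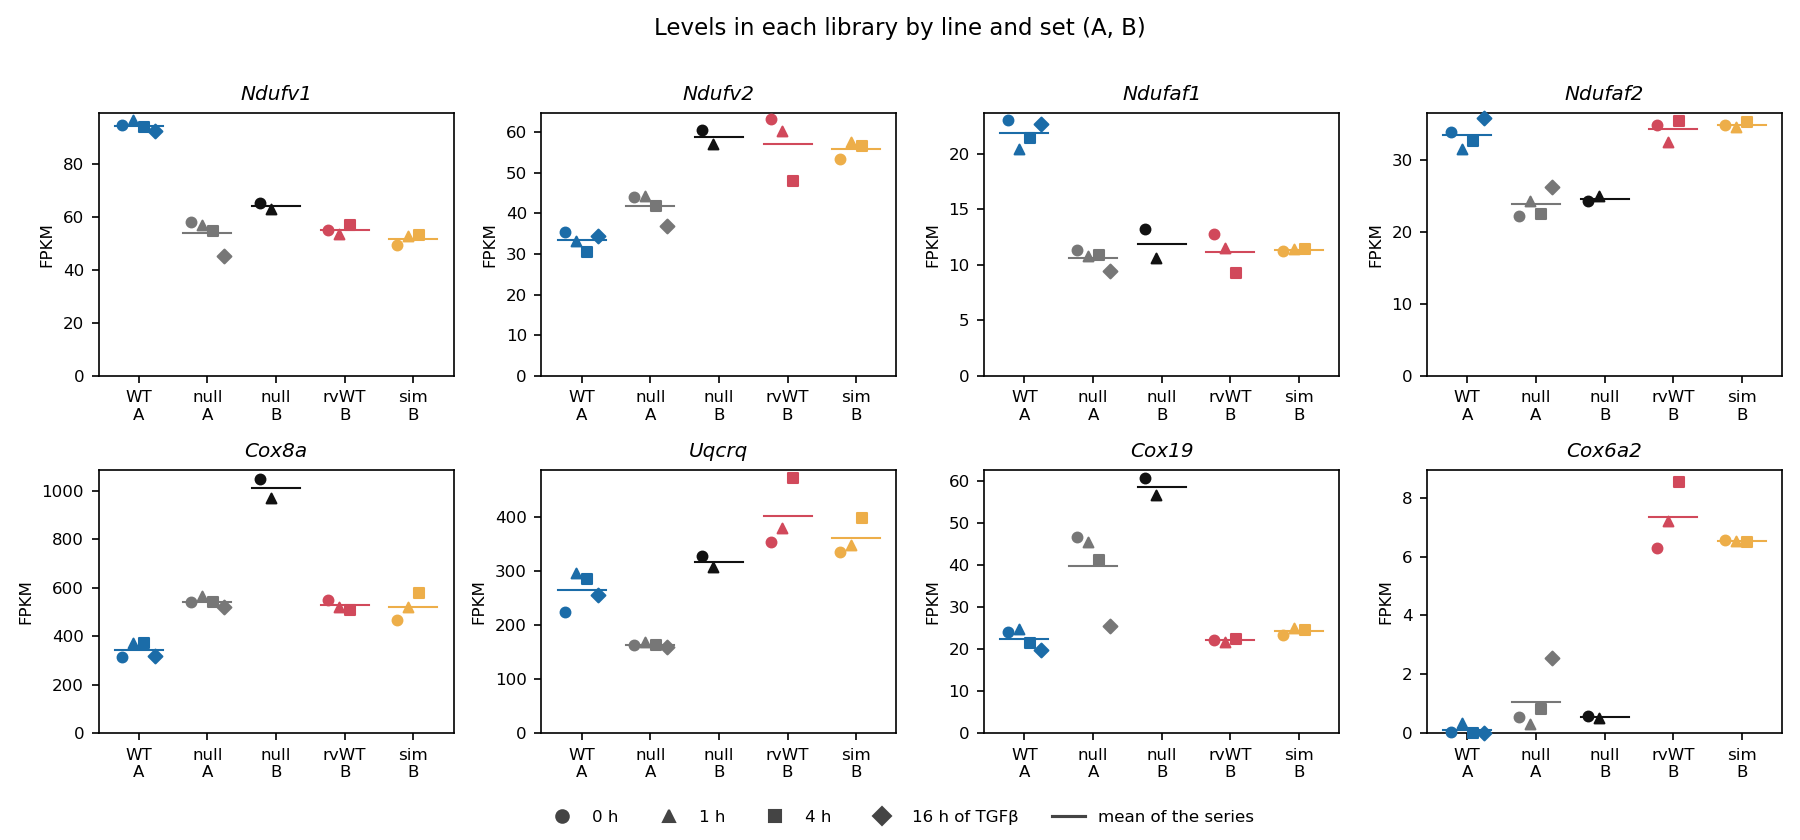
FPKM of 8 members in each library (points, shaped by time of TGFβ) by line and set, with a line at the mean of the series; each axis starts at 0. Ndufaf2 is higher and Cox19 lower in all libraries with Arkadia, Cox8a and Uqcrq differ between the null sets, and Cox6a2 is high in rvWT and sim.

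The windows before the start of the 4 members that separated all libraries with Arkadia from all null libraries are shown because this pattern held over both sets. Of these only Cox10 held ETS letters, in capitals, and no window held the NRF1 or YY1 letters.
Ndufaf2: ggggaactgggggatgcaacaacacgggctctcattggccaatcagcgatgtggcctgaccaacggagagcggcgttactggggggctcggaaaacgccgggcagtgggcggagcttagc
Cox10: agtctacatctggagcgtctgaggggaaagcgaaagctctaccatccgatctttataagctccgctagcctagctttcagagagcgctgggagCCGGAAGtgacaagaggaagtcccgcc
Atp5b: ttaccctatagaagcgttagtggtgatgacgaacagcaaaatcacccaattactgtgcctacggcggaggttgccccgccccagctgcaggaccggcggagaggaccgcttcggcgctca
Cox19: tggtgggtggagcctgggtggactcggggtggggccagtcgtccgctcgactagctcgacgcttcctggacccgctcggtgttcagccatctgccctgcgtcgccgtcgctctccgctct
The windows are chr13:108158626-108158745 (Ndufaf2), chr11:64079473-64079592 (Cox10) and chr5:139345167-139345286 (Cox19) on the minus strand and chr10:128083187-128083306 (Atp5b) on the plus strand.

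WT against null of set A and rvWT against null of set B share no library. Of the 92 members tested in both, 68 and 31 were called and 24 were called in both. Of these, 14 had the same direction (5 higher, 9 lower) and 10 opposite ones. The 14 are 20.6% of the WT calls and 45.2% of the rvWT calls, and over all genes the same shares were 26.2% and 45.8%. The 5 higher in both were Atp5d, Cox10, Ndufa12, Ndufaf2 and Ndufs7.

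rvWT and sim, which ask whether the sim mutation matters, did not differ in any member by limma (0 of 93, against 0.493% of all genes), with 6 members at an unadjusted p below 0.05. Differences ran from -0.32 (Atp5s) to 1.02 (Cox18) with a median of 0.04. Cox18, an insertase for a complex IV subunit, is not a stable estimate: it was at 11.8, 3.36 and 9.32 FPKM in rvWT and at 0.0034, 11.5 and 4.51 FPKM in sim. Ndufs1 was also low in sim at 0 h (9.07 FPKM, then 13.1 and 20.1 FPKM at 1 and 4 h) beside 18.2 to 20.6 FPKM in rvWT. Sim at 0 h was the lowest of its series for 60 of 94 members.

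TGFβ changed few respiratory chain genes. At 1 h no member passed (0 of 94, against 5.96% of all genes, 4 members at an unadjusted p below 0.05). At 4 h 1 member was higher and 8 lower (9.57% called, against 39.0% of all genes). The direction at 4 h depended on scaling: quantile normalization gave 0 higher and 19 lower, and median-ratio scaling 9 higher and 3 lower. At 16 h, measured in WT and null of set A alone, none was higher and 11 were lower (11.7%, against 19.4%), with 1 and 24 under quantile normalization and 1 and 5 under median-ratio scaling. All 11 calls were lost without null 16 h. Null 16 h was the lowest of its series for 67 of 94 members. Leaving out null 0 h of set A gave 4, leaving out rvWT 0 h gave 5, and leaving out WT 0 h, WT 4 h, null 1 h of set A, rvWT 1 h, sim 4 h or either null library of set B gave 7.

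At 4 h the strongest fall was in Atp5s, a coupling factor of ATP synthase, from 4.61 to 3.32 FPKM in WT, 3.37 to 1.85 in null of set A, 3.17 to 1.84 in rvWT and 4.63 to 2.78 in sim (difference -0.52, SE 0.08, limma adjusted p = 0.000817). All 4 series with both times fell. Uqcrq was the 1 member that rose, from 225 to 285 FPKM in WT, 162 to 163 in null, 354 to 472 in rvWT and 335 to 398 in sim (0.23, SE 0.08, adjusted p = 0.0389). Its change in null was small, and it was lost when WT 0 h, WT 4 h, null 1 h of set A, or any of rvWT 0 h, rvWT 4 h and the 3 sim libraries was left out. Without null 0 h or null 4 h of set A, 2 and 3 members were higher. Sdha (-0.16, SE 0.04), Uqcrc2 (-0.09, SE 0.03), Cox7a2l (-0.15, SE 0.05) and Atp5c1 (-0.17, SE 0.05) fell by small amounts, and no complex I subunit passed. The number of lower members at 4 h was 5 without rvWT 0 h and 4 without sim 4 h.

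At 16 h Cox20, a chaperone of a complex IV subunit, fell from 48.5 to 36.9 FPKM in WT and from 45.3 to 28.0 FPKM in null (difference -0.56, SE 0.16, adjusted p = 0.0342). Cox19 fell from 24.0 to 19.7 FPKM in WT and from 46.7 to 25.5 FPKM in null (-0.53, SE 0.11). Ndufa5, a complex I accessory subunit, fell from 107 to 80.5 FPKM in WT and from 78.4 to 59.4 FPKM in null (-0.38, SE 0.09). Both lines were lower at 16 h than at 0 h in these 3 genes. Atp5g2 changed by -0.26 (SE 0.07), and 4 complex I accessory subunits were among the 11.

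No member differed in its TGFβ response between WT and null (0 of 94 by limma, against 0.0362% of all genes, 3 members at an unadjusted p below 0.05) or between rvWT and null (0 of 94, against 0.0634%, 1 member). The second comparison set rvWT at 1 and 4 h against a single treated null library, at 1 h. Its SEs ran from 0.11 (Cox6c) to 0.97 (Cox18), and those of the first comparison from 0.095 (Cox6c) to 0.828 (Cox18). Both comparisons could miss differences of that size. Each response was pooled over the times with TGFβ, so a difference at a single time could also be missed. Medians over the 94 members, relative to 0 h of the same series, ran at 4 h from -0.07 in null of set A to 0.06 in sim, and at 16 h were -0.05 in WT and -0.17 in null. Over all genes the median at 16 h was -0.03 in WT and -0.08 in null. Null of set B fell at 1 h in 86 of 94 members (median -0.10), and sim was above its 0 h in 75 of 94 (median 0.10). These are single pairs of libraries with no test.

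**Figure D5:**
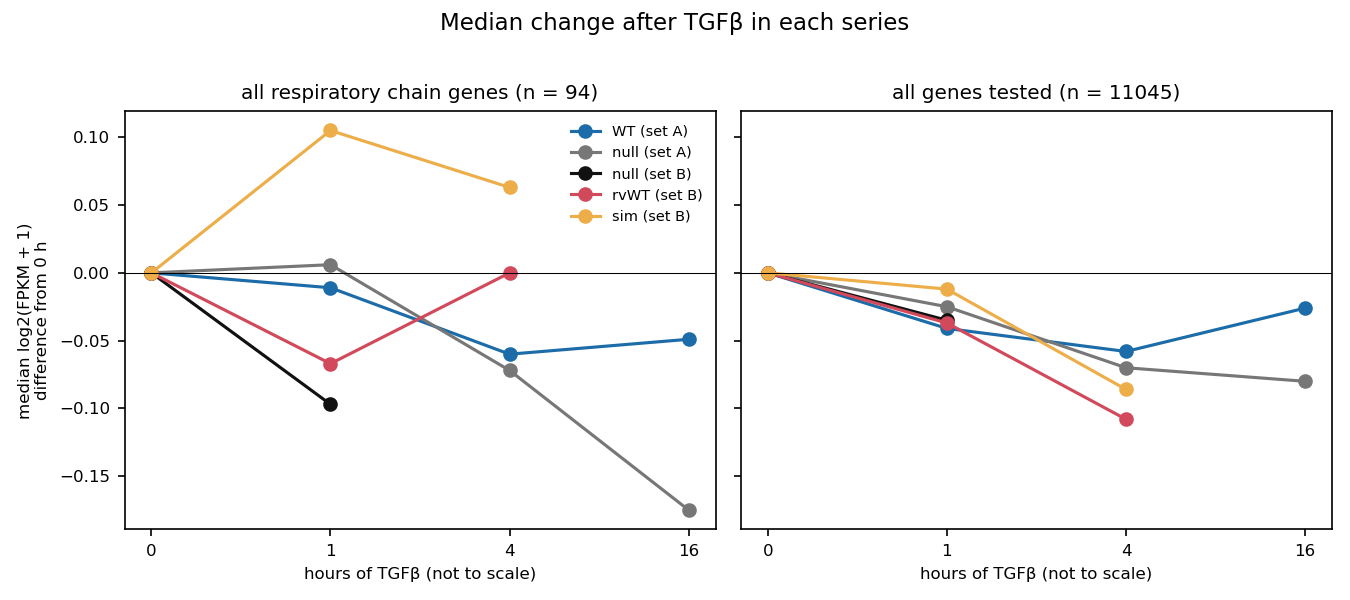
Median difference from 0 h of the same series in log2(FPKM + 1) by hours of TGFβ for the 94 members (left) and the 11045 genes tested (right), 1 line per series, 1 library per point. Member medians stayed between -0.17 (null, 16 h) and 0.10 (sim, 1 h).

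Lists of related genes gave the setting. The mitochondrial ribosome, which translates the mitochondrially encoded subunits, had 39 of 73 tested genes higher and 7 lower in WT than null of set A (63.0% called, against 67.5% of all genes), with Mrpl38 (1.38, SE 0.07), Mrpl10 (1.03, SE 0.05) and Mrpl22 (0.98, SE 0.05) foremost, and it was also higher in null of set B than of set A (43 higher, 1 lower, 60.3% called, against 35.7% of all genes). Assembly factors outside the symbols used had 8 of 17 higher and 4 lower in WT (70.6% called): Sco1, of copper delivery, by 0.83 (SE 0.06) and Taco1 by 0.74 (SE 0.05), with the insertase Oxa1l lower by -0.80 (SE 0.05). Citrate cycle genes had 7 of 12 higher and 2 lower, so 75.0% were called (Idh3a 0.64, SE 0.06, Idh3b 0.57, SE 0.05, Sucla2 -0.65, SE 0.05). Of the regulators and genes of mitochondrial DNA upkeep 5 of 12 were higher and 1 lower (50% called), with Tfam, which packages and transcribes that DNA, higher by 0.52 (SE 0.05). Of 6 genes of electron carriers and the ATPase inhibitor, 2 were higher and 2 lower (66.7% called). The higher ones were cytochrome c (Cycs, 0.46, SE 0.06) and the inhibitor Atpif1 (0.59, SE 0.04). Atpif1 in null of set B, at 202.2 and 191.0 FPKM, lay within the WT range of 184.3 to 202.6 FPKM. The shares called in all these lists are to be read against the 67.5% of all genes.

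In rvWT and sim, compared with null of set B, the orphan receptor Esrra, a regulator of respiratory genes, was lower (-0.80 in rvWT and -0.88 in sim, SE 0.09 in both) and Atpif1 higher (0.50 and 0.42, SE 0.08 in both). Both genes were also higher in null of set B than in null of set A (Esrra 0.49, SE 0.09, and Atpif1 0.57, SE 0.07). Esrra was at 20.2 and 19.2 FPKM in null of set B and at 13.6 to 14.6 FPKM in null of set A. Over rvWT and sim it was at 10.5 to 13.4 FPKM, below null of set A by less than below null of set B. The mitochondrial ribosome had 16 higher and 10 lower in rvWT (35.6% called, against 38.6% of all genes) and 9 higher and 15 lower in sim (32.9%, against 34.7%), shares near those of all genes. At 4 h of TGFβ the coactivator Pprc1 rose (0.48, SE 0.07) and Tfb1m, a mitochondrial ribosomal RNA methyltransferase, fell (-0.53, SE 0.11), with 1 of 73 ribosomal genes higher and 9 lower (13.7% called, against 39.0% of all genes). Many of the 94 genes have processed pseudogenes, and how reads that map to several places were counted, or whether strand was used, is not given in the sources used here.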

How the data were processed

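The authors deposited 1 table of FPKM values for 16 libraries and 12100 genes, each gene under a symbol and a RefSeq accession. The submitters' processing notes list Cufflinks 2.2.1, SAMtools, STAR 2.3.0e, CASAVA 1.8.2 and build mm9 without roles, and the library kit kept strand per the labels' protocols. No source used here states the annotation or how Cufflinks normalized.

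Values were analysed as log2(FPKM + 1), which understates differences of low genes, for genes whose mean in the fitted libraries reached 1 FPKM. Tests were limma 3.58.1 (trend, R 4.3.3), checked on simulated data, with Benjamini-Hochberg adjustment over all genes tested and a threshold of 0.05. Line comparisons used 8 libraries each (set A for WT, set B for the retroviral lines) with a term for time. TGFβ times were fitted over all 16 libraries with 5 series as a block, and responses by treatment-by-series terms.

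Named were the isoform pairs and catalytic subunits, the widest difference up and down per complex among called members, members under the filter, and up to 3 genes of each related list. One member is not reported here by name, and counts over the members include it. The members, lists and rules were chosen with earlier results of these data known. Lengths came from GENCODE M21 transcripts matched by accession (94 of 94 members) and promoter windows from RefSeq (GRCm38.p6). The table holds no coordinates, and none in mm9 are given. Other settings tried were pseudocounts (0.1, 5), filters (none, 5 FPKM), 3 other scalings, limma without trend, other model terms, each set alone, the null libraries of both sets as control, and each library left out in turn.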

Additional observations from a re-analysis of the deposited data

How the results depend on the processing

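The scatter between libraries was the sole measure of precision, since read depth is unknown. Without either null library of set B that line has 1 library, which is then assumed to vary like the other lines. No paired analysis was possible because the replicate numbers only mark the set of a null library, and time or series was a term in the tests already. Ranges over libraries left out in turn were, for members higher and lower, 40 to 46 and 18 to 22 (WT against null), 3 to 9 and 3 to 31 (rvWT against null), 2 to 5 and 3 to 31 (sim against null), 0 to 1 lower at 1 h of TGFβ, 0 to 3 and 4 to 12 at 4 h, 0 to 1 and 0 to 16 at 16 h, and 34 to 67 higher in null of set B than of set A. With the null libraries of both sets as control, WT had 28 higher and 34 lower, rvWT 28 and 13, and sim 25 and 14. In that setting Ndufa4 in WT was -0.009, the only 1 of 1174 named-gene values to change sign (997 kept their call and 176 lost it). Median-ratio scaling gave 14 lower in rvWT, 9 higher and 3 lower at 4 h, and 1 higher and 5 lower at 16 h. Quantile normalization gave 8 higher in sim, 1 lower at 1 h, 0 higher and 19 lower at 4 h, and 1 higher and 24 lower at 16 h. Leaving out small RNAs gave 38 lower in rvWT. Other model terms gave 5 higher in rvWT, 16 lower in sim, 1 lower at 1 h, 0 higher and 3 lower at 4 h, and 0 lower at 16 h. Set A alone gave 0 higher and 0 lower at 4 h and 1 lower at 16 h, and set B alone 2 higher at 4 h. Pseudocounts of 0.1 and 5, a minimum of 5 FPKM and limma without trend each gave 1 lower at 1 h. The cause was not tested, beyond the fewer libraries that the left-out and single-set fits hold.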
